A study of Mus musculus with 6 samples.

Results

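The genes of the constitutive proteasome were followed in hepatic stellate cells from mice, grown in culture. In the liver these pericytes hold vitamin A, and after injury they turn into myofibroblasts that lay down collagen. The genes were chosen by symbol, as every row named Psma1 to Psma7, Psmb1 to Psmb7, Psmc1 to Psmc6 or Psmd1 to Psmd14. This gave 34 of the 13341 genes in the table. The study set 3 libraries labelled Nbr1 knock-out against 3 labelled wild type, called biological replicates. All 6 cultures were grown for 4 days in DMEM with 10% fetal bovine serum under basal conditions, with no other allele or agent named. How the knock-out was made, the strain, and the sex and age of the animals are not given in the sources used here. Nbr1 encodes a receptor that carries ubiquitin-tagged cargo into autophagosomes, the other large route of protein degradation beside the proteasome.

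The proteasome is a barrel, the core particle, with a cap on its ends, the regulatory particle. The core is a stack of rings: outer alpha rings, encoded by the Psma genes, which gate the entrance, and inner beta rings, encoded by the Psmb genes, of which Psmb5, Psmb6 and Psmb7 give the subunits that cut peptide bonds. The regulatory particle has a base, with a ring of ATPases (Psmc genes) that unfolds substrates, and a lid (most Psmd genes) that removes ubiquitin. When the proteasome is blocked, mammalian cells raise these genes together through the transcription factor NRF1, encoded by Nfe2l1, which binds antioxidant response elements in their promoters. The symbols divided into 14 core genes, 17 regulatory genes and 3 genes, Psmd5, Psmd9 and Psmd10, that go against the name of subunit. These 3 encode chaperones that help to build the base and leave the finished particle.

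Values are normalized counts of reads from the 3' ends of transcripts, so they do not grow with transcript length, and between 1508518 and 2383879 reads per library lie behind them. Nbr1 itself stood at 203.7, 188.2 and 175.6 normalized counts in the knock-out libraries, against 204.1, 278.0 and 288.7 in the wild-type libraries, and reads from a transcript's end cannot show a deletion elsewhere in the gene. Sqstm1, the gene of the related receptor p62, had 817.4, 644.6 and 859.1 in the knock-out libraries and only 24.0, 10.9 and 12.7 in the wild-type libraries, so each direction below rests on the labels as given. Wild-type library 1 stood apart. Over the tested genes it correlated at 0.857 and 0.856 with wild-type libraries 2 and 3, and at 0.875 and 0.888 with knock-out libraries 1 and 3, so results are also given without it. Leaving it out also removes the wild-type library nearest to knock-out libraries 1 and 3. Their likeness and the genotype cannot then be told apart. Of 12 stellate cell and myofibroblast markers, 9 had a row, with a summed level of 15313.6 to 17340.4 in the knock-out libraries and 7367.2 to 9518.4 in the wild-type libraries, while the stellate markers Des, Lrat and Reln had none. The 3 hepatocyte markers of 6 with a row summed to 8.6 to 28.5 in the knock-out and 24.4 to 32.0 in the wild-type libraries, the 3 of 7 macrophage markers to 16.6 to 27.5 (knock-out) and 12.6 to 14.7 (wild type), and the 1 of 6 endothelial markers, Kdr, to 6.0 to 8.3 (knock-out) and 3.4 to 5.4 (wild type). The 5 mesothelial markers summed to 535.9 to 733.1 in the knock-out and 888.5 to 982.6 in the wild-type libraries. Upk3b and Wt1 lay lower in the knock-out with no overlap, Msln lay higher with no overlap, and Lrrn4 and Upk1b overlapped. The 4 cholangiocyte markers in the table summed to 541.3 to 570.8 (knock-out) and 138.6 to 150.8 (wild type). Sox9 made up most of this in the knock-out libraries, with a mean of 478.6 against 15.3 in the wild type. Krt19 (means 33.7 in the knock-out, 49.4 in the wild type) and Spp1 (29.9 and 74.6) went the other way with no overlap, and Krt7 overlapped. The part of these other markers in the results below was not tested.

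None of the 34 proteasome genes passed the test between the genotypes. All 34 entered the fit, and limma called 0 of 34 at an adjusted p under 0.05, where it called 6.92% of the 10540 tested genes (4.67% higher, 2.25% lower). edgeR on the recovered reads also called 0 of 34, where it called 7.27% of tested genes (5% higher, 2.27% lower), and so did DESeq2, where it called 9.02% (5.74% higher, 3.28% lower). At an unadjusted p under 0.05 there were 4, Psmb4, Psmc6, Psmd6 and Psmd9, where 22.6% of all tested genes reached it; edgeR had 4 and DESeq2 2 of 34. The log2 change, knock-out minus wild type, lay between -0.82 for Psma5 and 0.34 for Psmd8, and its median over the 34 genes was -0.05, beside -0.01 over all tested genes. The smallest adjusted p was 0.105, of Psmb4. A missed threshold does not show that levels were equal, and the intervals set what the data leave possible. For 22 of the 34 genes the 95% interval of the change lay inside 2-fold in either direction, as it did for 50.5% of tested genes, and for the other 12 it did not. In bulk RNA a change in the make-up of the culture and a change in the RNA of each cell cannot be told apart.

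**Figure D1:**
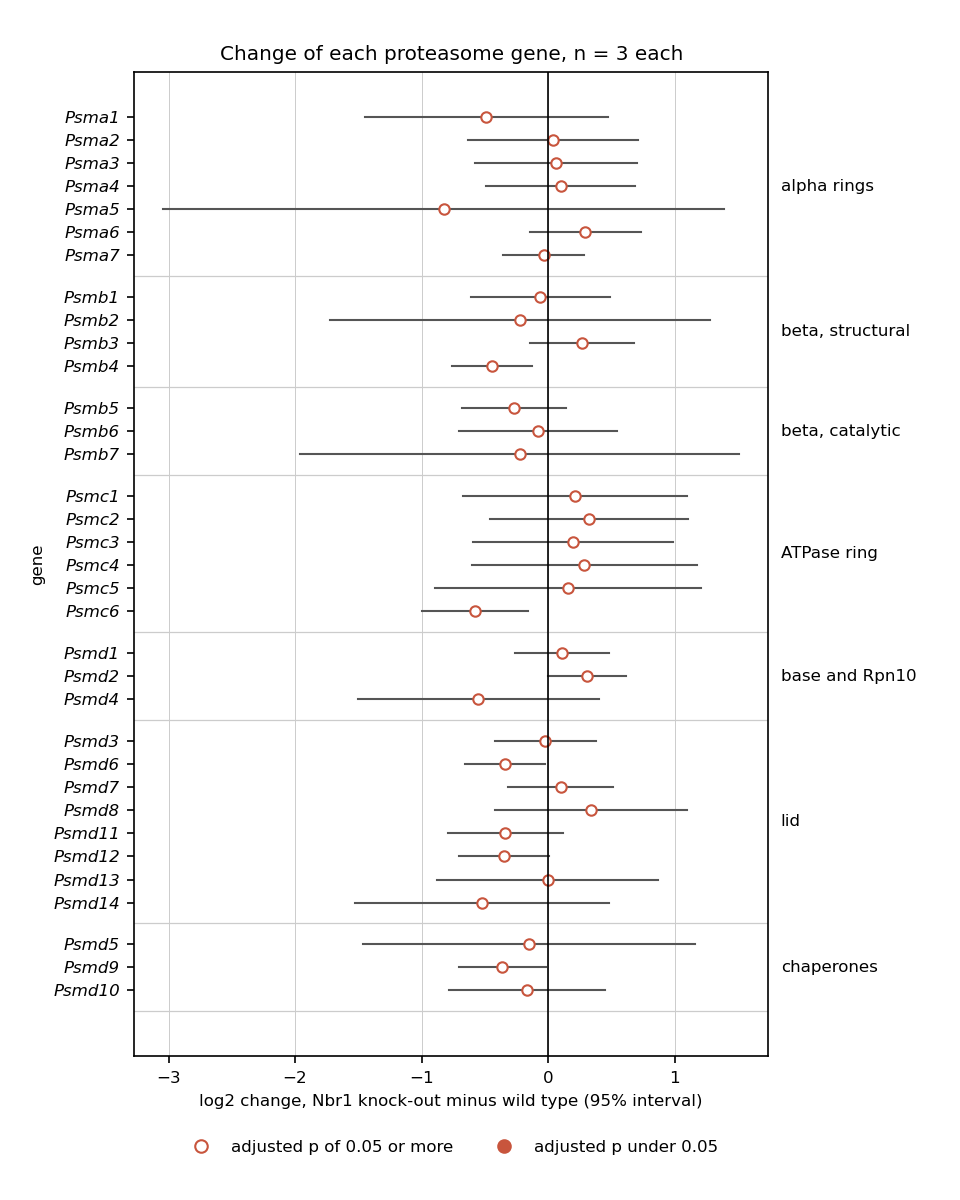
Log2 change (knock-out minus wild type, fitted on log2 of normalized count + 1) of the 34 genes, one per line and grouped by place in the particle, with 95% intervals, n = 3 libraries each. Open circles mark an adjusted p of 0.05 or more, which holds for every gene here; the intervals are widest for Psma5, Psmb7 and Psmb2.

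Taken as sums, the core particle was lower in the knock-out libraries and the regulatory particle was not separated. The 14 core genes summed to 7019, 6470 and 7004 normalized counts in knock-out libraries 1 to 3, against 7555, 7565 and 7328 in wild-type libraries 1 to 3. Every knock-out sum lay under every wild-type sum, with means of 6831 ± 313 in the knock-out and 7483 ± 134 in the wild-type libraries (SD, n = 3 each). As a share of all counts the core made up 0.362%, 0.331% and 0.358% in the knock-out libraries, against 0.375%, 0.378% and 0.371% in the wild-type libraries, again with no overlap. These sums rest mainly on the genes with the highest counts. Sums of the 7 alpha genes overlapped, at 3282, 3370 and 3231 in the knock-out libraries and 3014, 3816 and 3826 in the wild-type libraries. Among single tested genes, 30.1% had groups with no overlap (16.5% higher, 13.6% lower), and no such share was computed for sums of genes. Taken singly, 1 of the 14 core genes and 4 of the 17 regulatory genes had no overlap. The 17 regulatory genes summed to 8554, 7782 and 8558 in the knock-out libraries, against 9955, 8117 and 7656 in the wild-type libraries. The groups overlap, and wild-type library 1 was the highest of the 6. The ratio of the core sum to the regulatory sum was 0.821, 0.831 and 0.818 in the knock-out libraries, against 0.759, 0.932 and 0.957 in the wild-type libraries. The knock-out ratios lie close together (0.823 ± 0.007), and the wild-type ratios lie on both sides of them (0.883 ± 0.108, SD, n = 3 each). No p is given for these sums, since the genes were chosen with results of these data known.

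Gene by gene, the medians of both particles were small. The median log2 change was -0.07 over the 14 core genes and 0.10 over the 17 regulatory genes, beside -0.01 over all tested genes. Of the core genes 5 had a positive and 9 a negative value, and of the regulatory genes 9 and 8. With the 3 chaperone genes counted in, the regulatory median was -0.01. Without wild-type library 1 the median of the 17 was -0.03, and the core median was -0.19. As each library was left out in turn the regulatory median lay between -0.04 and 0.17, so its sign was not fixed, and the core median stayed under 0.

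**Figure D2:**
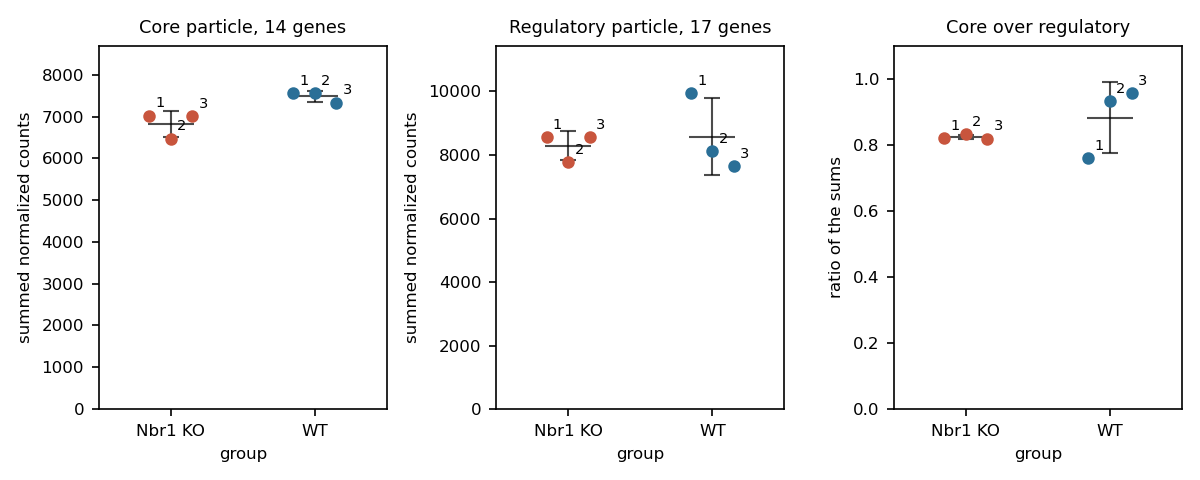
Summed normalized counts of the 14 core genes and the 17 regulatory genes, and the ratio of the sums, in each knock-out and wild-type library; points are libraries with their replicate number, bars the mean and SD (n = 3 each). The core sums of the knock-out libraries (6470 to 7019) lie under those of the wild-type libraries (7328 to 7565), while the other panels overlap.

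In the alpha rings, which gate the core, the groups overlapped for all 7 genes. Psma6 had 430.9, 361.0 and 404.6 normalized counts in the knock-out libraries, against 410.9, 299.8 and 276.9 in the wild-type libraries, the most positive change of the core (log2 change 0.29, SE 0.18, adjusted p = 0.415). Psma4 had 434.5, 420.3 and 587.4 in the knock-out libraries, against 624.4, 362.8 and 385.0 in the wild-type libraries (log2 change 0.10, SE 0.25), and Psma7, the most abundant of the ring by this measure, 959.5, 824.2 and 969.5 in the knock-out libraries, against 1046.0, 917.9 and 859.8 in the wild-type libraries (log2 change -0.04, SE 0.14). In all 3 genes wild-type library 1 was the highest wild-type library. The other alpha genes were lowest there. Psma1 had 317.7, 450.4 and 274.1 in the knock-out libraries, against 250.8, 648.3 and 666.4 in the wild-type libraries (log2 change -0.49, SE 0.40, adjusted p = 0.55). Psma5 had 86.0, 251.8 and 57.0 in the knock-out libraries, against 45.4, 428.3 and 355.0 in the wild-type libraries (log2 change -0.82, SE 0.93, adjusted p = 0.674). Its values within one genotype spanned more than its difference between genotypes, and its 95% interval ran from -3.04 to 1.39. Psma2 and Psma3 had log2 changes of 0.04 and 0.07. Without wild-type library 1 the calls of Psma1 (log2 change -0.95, adjusted p = 0.02) and Psma6 (0.46, adjusted p = 0.0413) passed. With knock-out libraries 1 and 3 against wild-type library 1 alone, their log2 changes were 0.23 and 0.02. With knock-out library 2 against wild-type libraries 2 and 3 they were -0.54 and 0.32.

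Among the 4 beta genes with no catalytic site, Psmb4 was the only core gene whose groups lay apart. It had 866.3, 697.0 and 806.9 normalized counts in the knock-out libraries, against 1158.0, 1036.3 and 1025.1 in the wild-type libraries. The means were 790.1 ± 85.9 in the knock-out and 1073 ± 73.7 in the wild-type libraries (SD, n = 3 each), the log2 change -0.44 (SE 0.13, adjusted p = 0.105). Psmb4, a structural subunit of the beta ring, had a log2 change between -0.51 and -0.36 as each library was left out. Psmb3 had 604.7, 448.6 and 614.7 in the knock-out libraries, against 520.3, 429.1 and 425.8 in the wild-type libraries (log2 change 0.27, SE 0.17, adjusted p = 0.427). Psmb1, at 1146.9 ± 202.2 in the knock-out and 1214.3 ± 342.1 in the wild-type libraries, had the highest count of all 34 genes (log2 change -0.06, SE 0.23). Psmb2 had 70.6, 155.6 and 46.3 in the knock-out libraries, against 38.7, 147.0 and 141.6 in the wild-type libraries, with the low values in knock-out libraries 1 and 3 and wild-type library 1 (log2 change -0.22, SE 0.63).

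The 3 catalytic subunits, which cut after different kinds of residue, all had negative values that did not pass. Psmb5, the chymotrypsin-like site and the main target of proteasome inhibitors, had 70.6, 72.2 and 83.1 normalized counts in the knock-out libraries, against 101.4, 89.0 and 82.6 in the wild-type libraries (log2 change -0.27, SE 0.17, adjusted p = 0.426). The groups overlap only through knock-out library 3 and wild-type library 3. Psmb6, the caspase-like site, had 794.8, 552.6 and 823.5 in the knock-out libraries, against 1066.0, 664.3 and 599.2 in the wild-type libraries (log2 change -0.08, SE 0.26, adjusted p = 0.907). Psmb7, the trypsin-like site, had 131.3, 250.1 and 80.7 in the knock-out libraries, against 52.0, 314.1 and 258.8 in the wild-type libraries (log2 change -0.23, SE 0.73, adjusted p = 0.9). Psmb6 was higher and Psmb7 lower in knock-out libraries 1 and 3 than in knock-out library 2, and likewise in wild-type library 1 than in the other wild-type libraries. The counts of these 2 catalytic genes thus differed in opposite directions between libraries of one genotype. Those of Psmb7 may include reads of Nek6, with which it shares 181 of 226 windows at its end, as set out below.

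In the ATPase ring 5 of 6 genes had a positive and only Psmc6 a negative log2 change. Psmc6 had 381.1, 453.8 and 346.5 normalized counts in the knock-out libraries, against 483.0, 645.0 and 640.1 in the wild-type libraries. Every knock-out value lay under every wild-type value, with means of 393.8 ± 54.8 in the knock-out and 589.3 ± 92.2 in the wild-type libraries (SD, n = 3 each; log2 change -0.58, SE 0.18, adjusted p = 0.109). It passed without wild-type library 1 (log2 change -0.71, adjusted p = 0.0144). Psmc2 had 425.5, 524.3 and 431.9 in the knock-out libraries, against 212.1, 483.7 and 480.3 in the wild-type libraries (log2 change 0.32, SE 0.33, adjusted p = 0.64), with wild-type library 1 alone far below the rest. Psmc3 had 1041.0, 825.1 and 1237.6 in the knock-out libraries, against 1498.3, 676.9 and 690.9 in the wild-type libraries (log2 change 0.20, SE 0.33), and without wild-type library 1 its log2 change was 0.58 (adjusted p = 0.0498). Psmc5 had 253.5, 153.0 and 281.2 in the knock-out libraries, against 388.2, 133.5 and 150.7 in the wild-type libraries (log2 change 0.16, SE 0.44). Psmc1, Psmc3, Psmc4 and Psmc5 shared 1 order of libraries, with wild-type library 1 highest, knock-out libraries 3 and 1 next, then knock-out library 2, and wild-type libraries 2 and 3 lowest. Their positive sign depends on that order. When knock-out libraries 1 and 3 are set against wild-type library 1 alone, the log2 changes of Psmc1, Psmc3 and Psmc5 were -0.44, -0.40 and -0.54. When knock-out library 2 is set against wild-type libraries 2 and 3 they were 0.26, 0.27 and 0.11.

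Beside the ATPases, the base holds the scaffolds encoded by Psmd1 and Psmd2, and Psmd4 encodes Rpn10, a receptor for ubiquitin chains. Psmd2, which also docks proteins that deliver substrates, was the only gene of the 34 that lay higher with no overlap. It had 831.0, 668.7 and 730.9 normalized counts in the knock-out libraries, against 628.4, 591.2 and 578.4 in the wild-type libraries (log2 change 0.31, SE 0.13, adjusted p = 0.228). Psmd1 had 1066.3, 1175.7 and 1016.9 in the knock-out libraries, against 831.2, 1144.7 and 1064.1 in the wild-type libraries (log2 change 0.11, SE 0.16). Psmd4 had 641.8, 438.3 and 639.6 in the knock-out libraries, against 1585.0, 629.0 and 568.4 in the wild-type libraries (log2 change -0.55, SE 0.40, adjusted p = 0.486). Its wild-type mean rests on library 1, which had more than both other wild-type libraries together.

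The lid held 2 of the genes whose groups lay apart. Psmd6, a structural lid gene, had 175.6, 171.9 and 173.2 normalized counts in the knock-out libraries, against 218.8, 236.0 and 207.0 in the wild-type libraries (knock-out 173.6 ± 1.9, wild type 220.6 ± 14.6, log2 change -0.34, SE 0.13, adjusted p = 0.186). Psmd12, also structural, had 228.1, 247.5 and 198.2 in the knock-out libraries, against 272.2, 316.6 and 268.7 in the wild-type libraries (log2 change -0.35, SE 0.15, adjusted p = 0.235). Neither gene followed the split of wild-type library 1 from the other wild-type libraries, from which it differed by -0.01 and -0.10 on the log2 scale. Psmd14, the metalloprotease that removes ubiquitin chains as substrates enter, had 122.2, 253.5 and 111.5 in the knock-out libraries, against 129.4, 283.0 and 280.6 in the wild-type libraries (log2 change -0.52, SE 0.42, adjusted p = 0.539). Low values thus stood in both genotypes. Psmd8 had 435.4, 495.0 and 350.0 in the knock-out libraries, against 201.5, 424.9 and 434.9 in the wild-type libraries (log2 change 0.34, SE 0.32, adjusted p = 0.608), and Psmd11, which clamps the lid to the core, 252.6, 298.2 and 242.1 in the knock-out libraries, against 264.2, 398.1 and 350.5 in the wild-type libraries (log2 change -0.34, SE 0.19, adjusted p = 0.367). The call of Psmd11 passed without wild-type library 1 (log2 change -0.50, adjusted p = 0.0443). Psmd3, Psmd7 and Psmd13 had log2 changes of -0.02, 0.10 and 0.00, with the widest interval for Psmd13.

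Of the 3 base chaperones, Psmd9 lay lower with no overlap. It had 95.0, 94.5 and 87.8 normalized counts in the knock-out libraries, against 116.1, 120.1 and 120.8 in the wild-type libraries (knock-out 92.5 ± 4.0, wild type 119.0 ± 2.5, log2 change -0.36, SE 0.14, adjusted p = 0.202). Psmd10, which encodes gankyrin, had 161.1, 136.7 and 202.9 in the knock-out libraries, against 258.8, 147.8 and 165.2 in the wild-type libraries (log2 change -0.17, SE 0.26). Psmd5 had 70.6, 137.5 and 86.6 in the knock-out libraries, against 42.7, 162.9 and 165.2 in the wild-type libraries (log2 change -0.15, SE 0.55). Psmd5 followed the split between libraries, and Psmd9 did not.

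In all, 6 of the 34 genes (17.6%) had groups that did not overlap, beside 30.1% of all tested genes (16.5% higher, 13.6% lower), so the share among proteasome genes was under the background. The 6 were Psmd2, higher, and Psmb4, Psmc6, Psmd6, Psmd9 and Psmd12, lower. Without wild-type library 1 limma called 5 of 34 (Psma1, Psmc6 and Psmd11 lower, Psma6 and Psmc3 higher), or 14.7%, where it called 21.1% of all tested genes (12.1% higher, 9.02% lower). With a term that sets knock-out libraries 1 and 3, together with library 1 of the wild type, apart from the other 3, added after the data had been seen, it also called 5, of which only Psmc6 was among those 5: Psmb4 (log2 change -0.52, adjusted p = 0.00353), Psmc6 (-0.46, adjusted p = 0.00998) and Psmd4 (-0.88, adjusted p = 0.00567) lower, and Psmc2 (0.57, adjusted p = 0.0404) and Psmd8 (0.58, adjusted p = 0.0334) higher. That is again 14.7%, beside 26.5% of all tested genes (14.3% higher, 12.2% lower). The sets were picked from the same deviations within groups that this fit takes its spread from. Its p-values are therefore likely too small, and its calls are a description only.

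**Figure D3:**
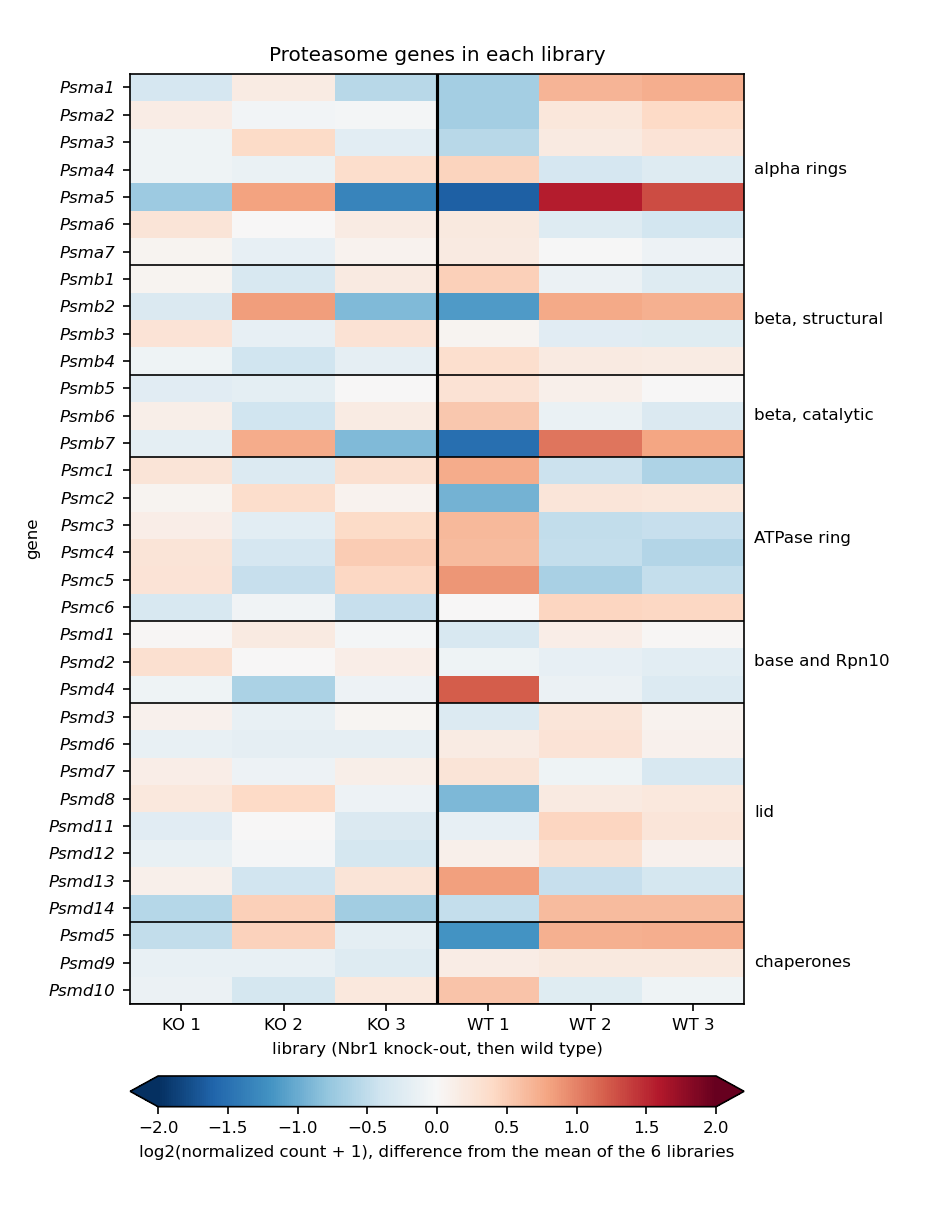
Difference of log2(normalized count + 1) from each gene's mean over the 6 libraries, with knock-out libraries left of the line and wild-type libraries right of it, and genes grouped by place in the particle. Most rows change colour between wild-type library 1 and wild-type libraries 2 and 3, with knock-out libraries 1 and 3 nearer to the first and knock-out library 2 nearer to the others, as for Psma5, Psmb7 and Psmc5.

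The larger differences among proteasome genes lay between libraries of one genotype. For 28 of 34 genes (82.4%), knock-out libraries 1 and 3 lay on one side of knock-out library 2 and wild-type library 1 on the same side of wild-type libraries 2 and 3. This held for 64.9% of all tested genes. Wild-type library 1, with knock-out libraries 1 and 3, was on the low side for 12 genes, where 31.6% of tested genes were, and on the high side for 16, where 33.3% were. The difference of wild-type library 1 from the mean of wild-type libraries 2 and 3 ran from -3.08 (Psma5) to 1.45 (Psmc5) on the log2 scale. It reached 2-fold for 15 genes (44.1%), beside 2529 of the 10540 tested genes (24%), of which 1774 were lower and 755 higher, so that lower values were also the more frequent over all genes. The 9 that were lower by this much were Psma1, Psma2, Psma5, Psmb2, Psmb7, Psmc2, Psmd8, Psmd14 and the chaperone gene Psmd5. The 6 that were higher were all regulatory genes, Psmc1, Psmc3, Psmc4, Psmc5, Psmd4 and Psmd13. Of the 14 core genes 5 were lower by 2-fold or more and 0 higher.

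The knock-out libraries held a like pattern. The split of the libraries was picked from these same data, so some agreement of the differences below was built in. Across the 34 genes, the wild-type difference and that of knock-out libraries 1 and 3 from knock-out library 2, which share no library, had a rank correlation of 0.95, and 31 of 34 genes had the same sign, as did 8300 of the 10540 tested genes. Over all tested genes the rank correlation was 0.73. It is given as a description across genes, which are not replicates. The wild-type difference had a rank correlation of 0.32 with the GC content of the last 300 bases of the transcript over the 34 genes and of 0.39 over 9929 tested genes. With transcript length the values were -0.20 and -0.03. Depth also moved in part with the pattern. Wild-type library 1 and knock-out library 3 were the shallowest, at 1508518 and 1648800 reads, while knock-out library 1 had 2143285. The part of GC content and depth in the genotype results was not tested.

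**Figure D4:**
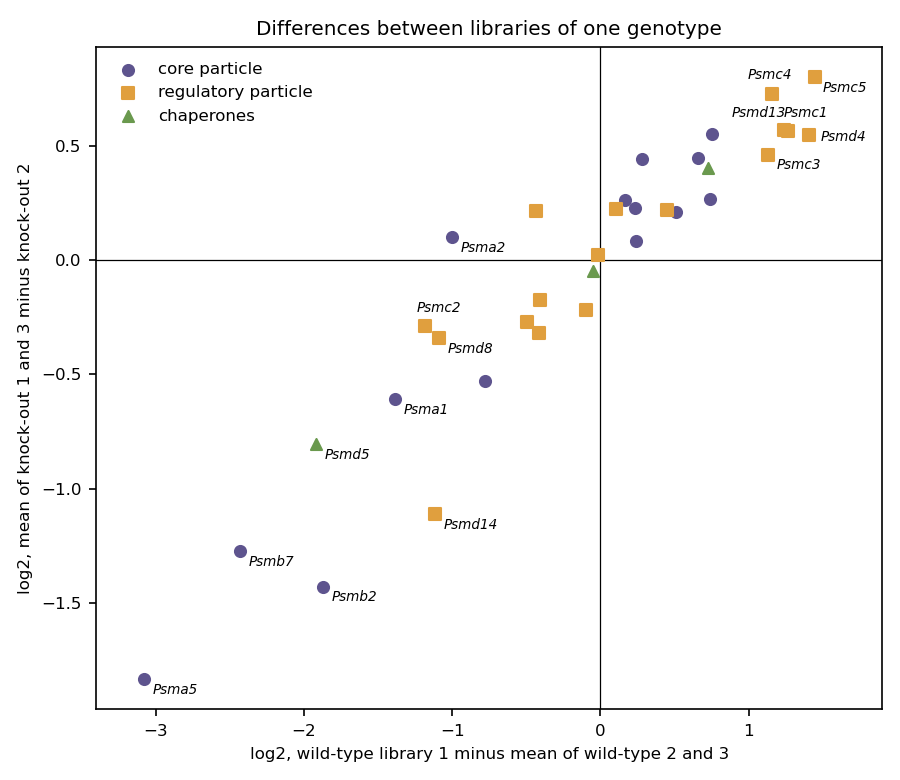
Each point is 1 of the 34 genes; the horizontal axis is wild-type library 1 minus the mean of wild-type libraries 2 and 3, the vertical axis the mean of knock-out libraries 1 and 3 minus knock-out library 2, both on the log2 scale. Points run along a rising line (rank correlation 0.95) from Psma5 at the lower left to the ATPase genes Psmc4 and Psmc5 at the upper right.

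Some genes share sequence or genome space with others, which bears on how their reads were assigned. Over the last 300 bases of the GENCODE transcript, reads of 75 bases would match another annotated transcript in part for Psma5, Psmb3, Psmb5, Psmb7, Psmd1 and Psmd2. For Psmb7 that transcript belongs to Nek6, which lies on the opposite strand, and 181 of 226 windows of 75 bases were shared. Psma3 and Psmc3 also end over a gene on the opposite strand. Whether counting used strand is not given, so values of Psmb7, Psma3 and Psmc3 are uncertain to that extent. Psma5, Psmb3, Psmb5, Psmd1 and Psmd2 have no gene on the opposite strand at their ends. How reads that match more than one transcript were assigned is not given either, so their values are uncertain too.

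The promoters were searched for the core of the antioxidant response element, the kind of site that NRF1 and NRF2 bind. RefSeq promoter sequences (GRCm38.p6, an older build than the GRCm39 named for these data) were matched for 28 of the 34 genes, and Psmb1, Psmb2, Psmb7, Psmc3, Psmd3 and Psmd7 were not among them. For Psma7, Psmc1, Psmd13 and the more upstream promoter of Psma6, the start did not match the GENCODE transcript used. These promoters were kept in the counts below. The motif TGACNNNGC, on either strand, was found in the 250 bases before the start of 5 genes, Psmb5, Psmb6, Psmc6, Psmd9 and Psmd12. That is 17.9% of the 28, beside 10.2% of all promoters in the set and 13.9% of the 8414 tested genes with a promoter. The related motif TGAGNNNGC was found in 8 (28.6%, beside 14.4% of promoters and 19.1% of tested genes), with Psmc6 and Psmd12 in both counts and no base shared between the matches there. CCAAT, the letters of the CCAAT box, was found in 11 (39.3%, beside 33.8% and 41.5%), and CCGGAAG, a form of the site of ETS-family factors, in 9 (32.1%, beside 6.91% and 17.1%). The last motif was picked after its share had been seen. A match is a description of letters and not of binding.

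The promoters of Psmb5, Psmb6, Psmd9 and Psmd12 are printed here, from genes that carry TGACNNNGC. These include 2 catalytic subunits and 2 genes whose groups lay apart. Psmc6, the other carrier, also had groups that lay apart and is not printed. Over all tested genes the groups lay apart for 30.1% (16.5% higher, 13.6% lower). No carrier of the motif was called in the main fit, and a link between motif and change was not tested. Each printed promoter is the 250 bases before the start, 5' to 3' in the direction of the gene, with the matches to TGACNNNGC and TGAGNNNGC in capitals. They lie at chr14:54617996-54618245 on the minus strand, chr11:70525107-70525356 on the plus strand, chr5:123227940-123228189 on the plus strand and chr11:107479278-107479527 on the plus strand. In Psmb5, Psmb6 and Psmd9 the match begins 47, 9 and 31 bases before the start, and in Psmd12 a match on the opposite strand lies 247 bases before it.
Psmb5: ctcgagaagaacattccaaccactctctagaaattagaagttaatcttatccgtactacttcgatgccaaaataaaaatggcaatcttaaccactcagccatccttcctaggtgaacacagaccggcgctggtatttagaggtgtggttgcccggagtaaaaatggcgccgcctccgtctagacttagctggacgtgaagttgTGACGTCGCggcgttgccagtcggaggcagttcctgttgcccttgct
Psmb6: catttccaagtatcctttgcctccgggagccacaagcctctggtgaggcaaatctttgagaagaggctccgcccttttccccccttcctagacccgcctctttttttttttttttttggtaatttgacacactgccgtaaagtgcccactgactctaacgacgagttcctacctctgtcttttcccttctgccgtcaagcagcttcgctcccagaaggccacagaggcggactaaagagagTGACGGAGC
Psmd9: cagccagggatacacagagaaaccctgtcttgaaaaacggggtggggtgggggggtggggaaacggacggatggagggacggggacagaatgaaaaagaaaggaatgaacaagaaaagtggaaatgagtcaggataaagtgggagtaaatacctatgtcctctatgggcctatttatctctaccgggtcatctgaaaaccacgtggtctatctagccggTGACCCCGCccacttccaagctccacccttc
Psmd12: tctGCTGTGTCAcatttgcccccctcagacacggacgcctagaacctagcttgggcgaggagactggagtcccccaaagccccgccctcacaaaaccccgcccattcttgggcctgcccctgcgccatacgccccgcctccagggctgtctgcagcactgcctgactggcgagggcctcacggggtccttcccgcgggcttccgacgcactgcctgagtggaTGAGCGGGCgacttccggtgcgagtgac
The 4 genes had log2 changes of -0.27, -0.08, -0.36 and -0.35 in the order printed, with no call among them. Psmc6, with both motifs, had -0.58. The genes with the related motif TGAGNNNGC had values of both signs, 5 positive (Psma4 0.10, Psma6 0.29, Psmb3 0.27, Psmc2 0.32 and Psmd1 0.11) and 3 negative (Psmc6 -0.58, Psmd12 -0.35 and Psmd5 -0.15). The factor's own gene, Nfe2l1, had 136.7, 168.5 and 113.9 normalized counts in the knock-out libraries, against 154.8, 201.6 and 175.2 in the wild-type libraries (log2 change -0.35, SE 0.20, adjusted p = 0.367). Nfe2l2, which encodes NRF2, had 162.0, 278.5 and 128.2 in the knock-out libraries, against 173.4, 273.8 and 278.7 in the wild-type libraries (log2 change -0.40, SE 0.33, adjusted p = 0.55). Both overlapped between the groups, Nfe2l1 at knock-out library 2 and wild-type library 1. NRF1 is controlled largely by release from the endoplasmic reticulum and cleavage, which RNA levels do not measure.

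Other genes of the pathway were listed by role, 35 in all, of which Paaf1 and Ddi2 had no row and 33 were tested. Of these, 2 rose, 1 fell and 30 did not pass, or 9.09% called, beside 6.92% of all tested genes. That share includes Psmb8, which was tested only because it was high in the knock-out libraries. With a mean of at least 50, which leaves Psmb8 out, 1 rose and 1 fell of 27 (7.41%), beside 380 of 6885 genes. The median log2 change was 0.00. Usp14, the deubiquitinase that docks on the regulatory particle and trims chains, fell: it had 310.5, 335.2 and 333.4 normalized counts in the knock-out libraries, against 564.3, 534.1 and 510.3 in the wild-type libraries (knock-out 326.4 ± 13.8, wild type 536.2 ± 27.1, log2 change -0.71, SE 0.12, adjusted p = 0.0171). Ufd1 rose, with 202.8, 179.6 and 166.1 in the knock-out libraries, against 100.1, 98.3 and 112.6 in the wild-type libraries (knock-out 182.8 ± 18.5, wild type 103.6 ± 7.8, log2 change 0.81, SE 0.16, adjusted p = 0.0272). It encodes a cofactor of the ATPase VCP, which pulls ubiquitin-tagged proteins out of membranes and complexes for the proteasome. Its partner in that cofactor, Nploc4, had 104.1, 109.2 and 123.4 in the knock-out libraries, against 173.4, 171.3 and 151.6 in the wild-type libraries (log2 change -0.56, SE 0.15, adjusted p = 0.0836). The partners thus lay apart in opposite directions, and Vcp itself had 1179 ± 66.7 in the knock-out and 1177 ± 96.7 in the wild-type libraries.

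The third call was Psmb8, the interferon-inducible subunit that takes the place of Psmb5 in the immunoproteasome. Psmb8 met the minimum of 10 in 3 libraries only through the knock-out libraries, where it was high, so its place among the tested genes depends on the difference itself, and with a mean of at least 50 it was not tested. It rose, at 28.1, 32.7 and 21.4 normalized counts in the knock-out libraries, against 1.3, 6.7 and 7.3 in the wild-type libraries (log2 change 2.40, SE 0.54, adjusted p = 0.0465). Psmb9 (log2 change 0.78, adjusted p = 0.566) and Psmb10 (0.41, adjusted p = 0.439) did not pass. With a block for replicate number the calls of Usp14, Ufd1 and Psmb8 were lost (adjusted p = 0.0698, 0.0837 and 0.0605), and that of Psmb8 also with a pseudocount of 0.5 (adjusted p = 0.0563). All 3 were also lost in each fit that left out 1 library, wild-type library 1 excepted: the adjusted p reached 0.123 for Usp14, 0.168 for Ufd1 and 0.189 for Psmb8. Over the fits that left out 1 library the log2 change ran from -0.75 to -0.68 for Usp14, from 0.73 to 0.88 for Ufd1 and from 1.81 to 2.72 for Psmb8.

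Among the 2 subunits that the symbols do not reach, Adrm1, a second ubiquitin receptor, had 35.3, 36.1 and 30.9 normalized counts in the knock-out libraries, against 33.4, 26.0 and 43.6 in the wild-type libraries (log2 change 0.02, SE 0.25). Sem1 had 373.0, 1021.0 and 251.6 in the knock-out libraries, against 76.0, 1268.9 and 1140.4 in the wild-type libraries, the same split between libraries as Psma5 (log2 change -0.07, SE 1.12). The 5 assembly factors tested, Pomp and Psmg1 to Psmg4, gave 0 calls, with log2 changes from -0.22 to 0.57. The 5 genes of other core regulators gave 0 calls, with log2 changes from -0.34 (Psme1) to 0.57 (Psme2). Among the shuttle proteins that bring substrates to the regulatory particle, Ubqln4 had 91.4, 62.7 and 91.4 in the knock-out libraries, against 241.5, 145.3 and 135.3 in the wild-type libraries (log2 change -1.05, SE 0.28, adjusted p = 0.0773). Its groups lay apart, and it passed in DESeq2 (adjusted p = 0.0206) and without wild-type library 1 (adjusted p = 0.0379). Ubqln2 had 66.1, 189.1 and 65.3 in the knock-out libraries, against 120.1, 303.2 and 267.8 in the wild-type libraries (log2 change -1.18, SE 0.52, adjusted p = 0.238). Sem1, Psme1, Psme2, Ubqln2, Ubqln4, Nploc4 and Vcp were named after their values had been seen.

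**Figure D5:**
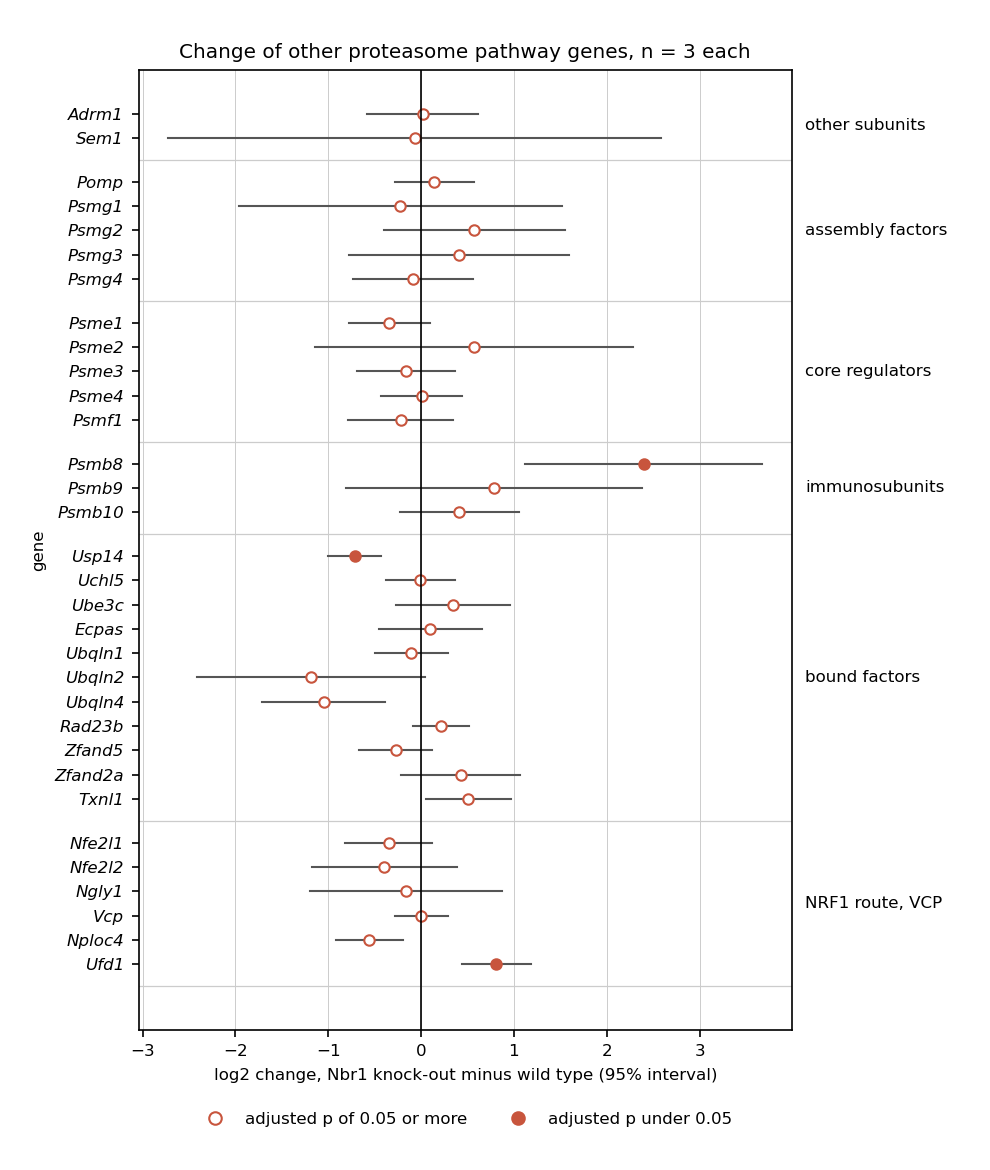
Log2 change (knock-out minus wild type) of the other tested genes of the pathway, grouped by role and with 1 of the 33 not drawn, with 95% intervals, n = 3 libraries each. Filled circles mark an adjusted p under 0.05: Psmb8 and Ufd1 to the right of 0 and Usp14 to the left.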

How the data were processed

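Per the labels' protocols, libraries came from 200 ng of RNA with the Lexogen QuantSeq 3' forward kit (optional molecular identifiers), read as single ends of 75 bases. The submitters' processing notes name DESeq2 and the build GRCm39; the aligner, annotation and use of strand are not given there. Per the file's values, the authors deposited a signal of normalized counts, each gene's count divided by a factor of its library. Whole reads were recovered for 100% of values (tolerance 0.01); 1 read is worth 0.84 to 1.33.

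A gene entered the fit if 3 or more libraries had a value of 10 or more, which left 10540. The two-sided test was limma 3.58.1 (R 4.3.3), trend option on, on log2(value + 1), Benjamini-Hochberg adjusted over all of them; this scale understates changes of low genes. Intervals are limma's, at 95%. Alternatives were edgeR 4.0.16 (quasi-likelihood), DESeq2 1.42.0, other pseudocounts, filters and scaling, a block for replicate number, and leaving out libraries one by one. A term for 2 library sets (wild-type library 1 with knock-out libraries 1 and 3, against the rest), from average-linkage clustering of deviations from group means, was added after seeing the data. The same deviations set the spread of that fit, so its p-values are likely too small. Only the limma fit without a block was run on simulated data with known changes, and the other fits were not. Genes, lists and the genes named (calls, catalytic and key regulatory subunits, the 3 highest and lowest changes of each particle, chaperones) were chosen with earlier results of these data known. Nothing in the labels says that replicates came from separate animals, so p-values measure only the spread between these cultures. Transcript ends come from GENCODE M21 (GRCm38) and promoters from RefSeq (GRCm38.p6). The values of 1 other pathway gene are not reported here.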

Additional observations from a re-analysis of the deposited data

How the results depend on the processing

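The count of 0 called proteasome genes held in limma, edgeR and DESeq2, with other pseudocounts, filters, scaling and the replicate block, and without any library except wild-type library 1. Leaving out 1 library gave 0 to 2 called core genes, 0 to 3 regulatory genes, 0 to 8 other pathway genes and 200 to 2228 of all genes (729 with all 6). It gave medians of -0.19 to -0.035 (core), -0.039 to 0.17 (regulatory) and -0.21 to -0.012 (core minus regulatory, -0.17 with all 6). The term for the library sets, whose p-values are likely too small, gave 1 core, 4 regulatory, 10 other pathway and 2791 genes in all. It gave a regulatory median of -0.090 and a difference of 0.053. A mean of at least 50 left 380 calls. The replicate block left 476 calls and 0 of the other pathway genes. Deviations of same-numbered libraries correlated at 0.45, 0.70 and -0.62, of both signs, which does not settle whether the numbers pair the libraries. DESeq2 gave a regulatory median of 0.022. With Psmd5, Psmd9 and Psmd10 that median was -0.014 and the difference -0.056.

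Signs of single genes turned, also of some far from 0 (Psmd8, Psmc2, Psmb7 and Psmb2). In edgeR Psma2 was at -0.024, and in DESeq2 at -0.040, with Adrm1 at -0.013. With TMM factors Psmd13 was at 0.00085. With the term for the library sets the log2 change was -0.068 for Psma4, 0.33 for Psmb2, 0.39 for Psmb7, -0.090 for Psmc1, -0.065 for Psmc3, -0.027 for Psmc4, -0.22 for Psmc5, 0.013 for Psmd3, 0.30 for Psmd5 and -0.012 for Psmd7. Leave-one-out ranges that cross 0 were -0.30 to 0.24 for Psma2, -0.19 to 0.22 for Psma3, -0.053 to 0.35 for Psma4, -0.10 to 0.043 for Psma7, -0.21 to 0.16 for Psmb1, -0.84 to 0.17 for Psmb2, -0.24 to 0.18 for Psmb6, -1.04 to 0.25 for Psmb7, -0.043 to 0.64 for Psmc1, -0.072 to 0.52 for Psmc2, -0.13 to 0.64 for Psmc5, -0.025 to 0.21 for Psmd1, -0.17 to 0.090 for Psmd3, -0.79 to 0.17 for Psmd5, -0.036 to 0.25 for Psmd7, -0.025 to 0.53 for Psmd8, -0.33 to 0.075 for Psmd10, -0.24 to 0.41 for Psmd13 and -0.16 to 0.20 for Adrm1. The cause was not tested. Depth gave every proteasome gene at least 38.7 normalized counts in every library.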
